A study of Mus musculus with 5 samples.

Results

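Genes that are mutated in inherited sensory neuropathies were followed across the cells of the mouse dorsal root ganglion (DRG), the cluster of sensory nerve cell bodies beside the spinal cord. The genes were listed by name and matched by symbol to the rows of the count matrix. All 9 of the 9 listed genes (Sptlc1, Sptlc2, Atl1, Atl3, Kif1a, Dst, Rab7, Wnk1 and Dnmt1) were present, out of 17267 mouse genes. The cells came from lumbar DRGs of 5 untreated wild type C57BL/6 mice aged 18 weeks, 3 males and 2 females in the study as a whole, and no sex was tied to a library. There was 1 condition, so every comparison is between cell types within the same mice. The 3352 cells had been assigned to 14 types by the authors, and 3047 of the cells were neurons. The types were 3 of neurofilament-containing neurons (NF), 5 peptidergic (PEP), 3 non-peptidergic (NP), Th neurons, satellite glia and endothelial cells. Cell size, myelination and fibre class are not given by these labels.

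Hereditary sensory neuropathies are disorders in which sensory axons, often the longest ones, are lost, so that pain, temperature and touch fail in the feet and hands. Several of the known disease genes are thought to serve the upkeep of a very long axon. Sptlc1 and Sptlc2 code for subunits of serine palmitoyltransferase, the enzyme that starts sphingolipid synthesis. Atl1 and Atl3 are atlastins, GTPases that fuse tubules of the endoplasmic reticulum (ER). Kif1a is a kinesin motor that carries vesicle precursors along axonal microtubules, and Dst (dystonin) links actin, microtubules and intermediate filaments. Rab7 is the GTPase of late endosomes, Wnk1 is a kinase that regulates chloride cotransporters, and Dnmt1 is the maintenance DNA methyltransferase.

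On the mm10 (GRCm38) genome, Sptlc1 lies at chr13:53332748-53377397, minus strand, Sptlc2 at chr12:87305058-87388355, minus strand, Atl1 at chr12:69892614-69966417, plus strand and Atl3 at chr19:7494040-7539674, plus strand. Kif1a lies at chr1:93015464-93101951, minus strand, Dst at chr1:33908225-34308661, plus strand, Rab7 at chr6:87999106-88045270, minus strand, Wnk1 at chr6:119923969-120038672, minus strand and Dnmt1 at chr9:20907209-20959888, minus strand. These are gene bodies as annotated by GENCODE, and chromosome and strand matched the row names of the matrix for all 9 genes. The assay counts the 3′ ends of transcripts, so the isoforms of long genes such as Dst and Wnk1, including those made only in nerve, were summed.

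The bases just upstream of the first listed start (RefSeq, GRCm38.p6) are shown for 4 members. Kif1a, Dst and Wnk1 are shown because their levels moved together over the neuron types, and Sptlc2 because it differed in the other direction. All are written 5′ to 3′ on the gene's strand and stop before any exon annotated by GENCODE. Capitals mark a GC box (GGGCGG) or a CCAAT box (CCAAT) on either strand.
Kif1a, chr1:93101952-93102124, minus strand: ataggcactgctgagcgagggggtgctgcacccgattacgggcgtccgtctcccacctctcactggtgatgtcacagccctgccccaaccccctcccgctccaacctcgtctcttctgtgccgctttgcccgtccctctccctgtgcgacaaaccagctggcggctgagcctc
Dst, chr1:34011345-34011594, plus strand: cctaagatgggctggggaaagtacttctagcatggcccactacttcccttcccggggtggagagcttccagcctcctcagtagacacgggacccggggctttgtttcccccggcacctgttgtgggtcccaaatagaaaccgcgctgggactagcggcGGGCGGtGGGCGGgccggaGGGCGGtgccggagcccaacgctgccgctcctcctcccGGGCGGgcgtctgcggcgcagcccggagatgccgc
Wnk1, chr6:120038673-120038905, minus strand: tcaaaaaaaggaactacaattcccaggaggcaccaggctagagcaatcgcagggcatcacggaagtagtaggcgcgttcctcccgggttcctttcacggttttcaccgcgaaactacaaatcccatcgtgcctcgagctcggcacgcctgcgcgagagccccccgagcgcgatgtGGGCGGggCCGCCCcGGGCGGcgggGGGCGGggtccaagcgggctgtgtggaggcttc
Sptlc2, chr12:87388356-87388605, minus strand: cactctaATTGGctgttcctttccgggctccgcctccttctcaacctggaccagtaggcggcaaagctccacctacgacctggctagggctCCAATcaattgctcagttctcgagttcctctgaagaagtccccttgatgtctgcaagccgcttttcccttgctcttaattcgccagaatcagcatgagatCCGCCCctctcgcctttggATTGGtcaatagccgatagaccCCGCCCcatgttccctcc
In the 250 bases before the start, Dst had 4 GC boxes and Wnk1 4, Sptlc2 had 2 GC boxes and 3 CCAAT boxes, and Kif1a had neither motif. A GC box occurred in 32.9% and a CCAAT box in 34.5% of 27025 upstream windows of the same length. The number of CpG dinucleotides was 22 for Kif1a, 22 for Dst, 26 for Wnk1 and 11 for Sptlc2, against a median of 6 over all windows. In the first windows of the other members it ran from 2 for Dnmt1 to 47 for Atl1. The windows of Atl1 and Atl3 lay wholly within annotated exons and are not shown.

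The libraries held 164 to 1370 cells and 13050375 to 88886919 unique molecular identifiers (UMIs, each marking 1 captured transcript), 224553219 in all. The median per type ran from 16889 UMIs per cell in endothelial cells to 105150 in NP_Mrgprd, so levels are given as CPM, the usual depth-scaled UMI count, of the summed cells of a type in a library. Over the neuron types, 5 neuron markers summed to between 5775 CPM (Th) and 10190 CPM (NF_Pvalb). The 5 satellite glia markers summed to 90580 CPM in satellite glia, and 5 endothelial markers to 6287 CPM in endothelial cells. No marker list particular to the NF, PEP, NP or Th neurons was examined. Endothelial cells also held 1527 to 15240 CPM of the satellite glia markers. Neuron markers were at 227 to 656 CPM in satellite glia and 275 to 767 CPM in endothelial cells. Endothelial cells and NF2_Ntrk2.Necab2 were the thinnest sums, with 3 cells each in library 1, and 7 of 3345 distinct barcodes occurred in more than 1 library.

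Over all cells, Dst gave 111991 UMIs, Kif1a 94605, Rab7 56986, Atl1 41636, Wnk1 22905, Atl3 7903, Sptlc2 3996, Sptlc1 3409 and Dnmt1 2247. Since UMI yield differs between genes, these totals give the depth behind each gene and not an order of abundance. Each type was then tested against all other cells with edgeR's quasi-likelihood test on the 5 library sums, and a call was an adjusted p under 0.01 after Benjamini-Hochberg adjustment over all genes. Of the 126 tests of 9 members in 14 types, 31 were called, 16 higher and 15 lower. The types were themselves defined from these counts, and large shares of all genes passed the same rule, so the calls are read against that background.

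NF_Calb1 had 5 of 9 members called (4 higher, 1 lower) beside 58.3% of all genes, NF_Pvalb 4 (3 higher, 1 lower) beside 52%, and NF2_Ntrk2.Necab2 3 (2 higher, 1 lower) beside 36.6%. PEP2_Htr3a.Sema5a had 2, both higher, beside 43.6%. PEP3_Trpm8 had 1, lower, beside 33.7%, and PEP1_Slc7a3.Sstr2 had 1, lower, beside 34.4%. NP_Mrgprd had 4 (2 higher, 2 lower) beside 60.3%, and Th had 2 (1 higher, 1 lower) beside 36.3%. Satellite glia had 4 (1 higher, 3 lower) beside 67.6%, and endothelial cells had 5 (1 higher, 4 lower) beside 55.5%. No member was called in PEP1_Dcn (background 27.5%), PEP1_S100a11.Tagln2 (21%), NP_Nts (42.9%) or NP_Mrgpra3 (25.6%) by edgeR. At an unadjusted p under 0.05 these 4 types had 3, 4, 3 and 2 members, and DESeq2 called 0, 0, 3 (Dst, Wnk1 and Rab7) and 1 (Wnk1). In no type was the share of members called far above the share of all genes. Of the 31 calls, 20 were kept in every alternative fit of the same comparison, and the 11 that were lost in at least 1 are named with their genes. With the mouse as a replicate block 44 tests were called, all 31 among them, so a gene not called by the unpaired fit may still differ. The 13 added were Rab7 in NF_Calb1 (lower), NP_Mrgprd and NP_Nts (higher), Wnk1 in NP_Mrgpra3 and NP_Nts (lower), Dst in NP_Nts, PEP1_Slc7a3.Sstr2 and satellite glia (lower), and Kif1a in NP_Mrgprd (lower). The others were Atl3 in PEP2_Htr3a.Sema5a (higher) and PEP3_Trpm8 (lower), and Dnmt1 in PEP1_S100a11.Tagln2 and Th (higher). Their fitted log2 values lay between -0.59 and 0.63, with adjusted p-values of 0.001 to 0.0098.

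**Figure D1:**
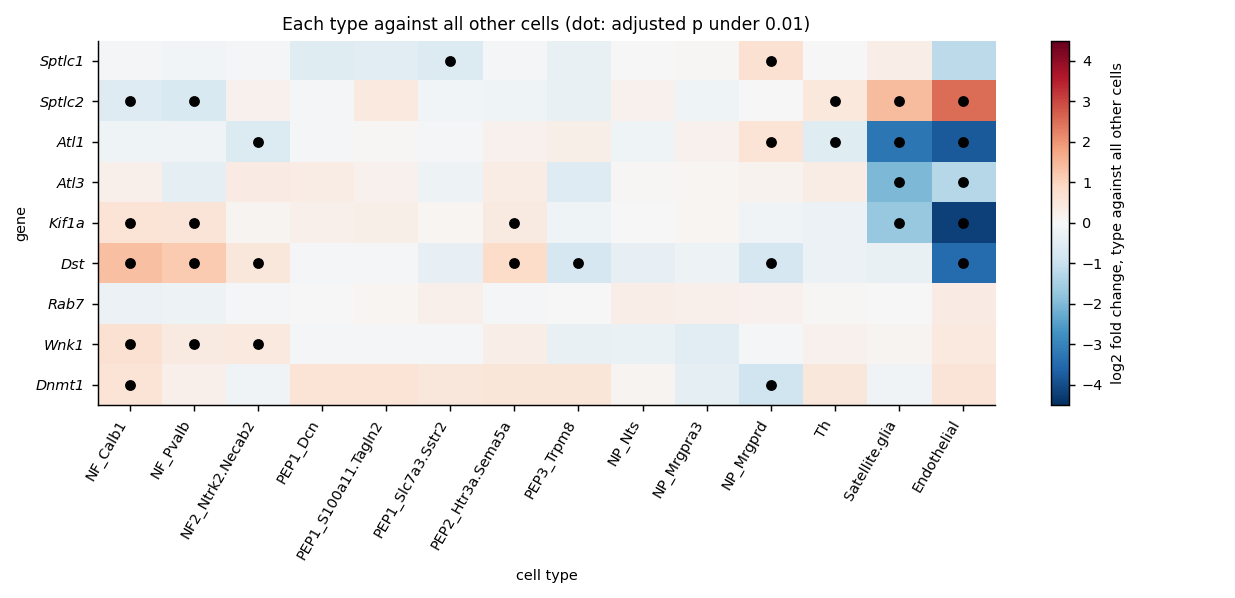
Heat map of the log2 fold change of each gene (rows) in each type against all other cells (columns), with a dot where the adjusted p was under 0.01 by edgeR over 5 libraries. Most of the 31 dots are in the NF types, NP_Mrgprd, satellite glia and endothelial cells. In these types 36.6% to 67.6% of all genes passed the same threshold. Rab7 has no dot in this unpaired fit.

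The 2 subunits of serine palmitoyltransferase had no steady relation over the types. In single libraries their Pearson correlation ran from -0.64 to 0.62 over the 14 types and from -0.21 to 0.49 over the 12 neuron types. Sptlc2 was highest outside the neurons, in endothelial cells and satellite glia, and lowest in NF_Pvalb and NF_Calb1, whereas Sptlc1 differed less over the types. In libraries 1 to 5, Sptlc2 stood at 137, 69.5, 126, 89.4 and 102 CPM in endothelial cells and at 55.5, 39.2, 38.8, 43.5 and 37.5 CPM in satellite glia. In all neurons it stood at 15.8, 15.3, 20.9, 17.8 and 16.2 CPM, so that neither non-neuronal type overlapped the neurons in any library. The means were 105 ± 27.3 CPM in endothelial cells, 42.9 ± 7.38 in glia and 17.2 ± 2.24 in neurons (SD, n = 5 libraries, as everywhere below). Sptlc2 was called higher in endothelial cells (log2 fold change 2.50, SE 0.19, adjusted p = 5.8e-09) and in satellite glia (log2 fold change 1.42, SE 0.15, adjusted p = 1.4e-07) by edgeR, and both calls were kept in every alternative fit.

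Among the neuron types, Sptlc2 ran from 23.8 ± 3.801 CPM in Th to 11.6 ± 2.2 in NF_Pvalb. It was called lower in NF_Calb1 (12.9, 13.96, 12.5, 15.3 and 13.1 CPM in libraries 1 to 5; log2 fold change -0.57, SE 0.13, adjusted p = 0.0016) and in NF_Pvalb (13.4, 10.9, 12.6, 8.097 and 13.1 CPM; log2 fold change -0.69, SE 0.17, adjusted p = 0.0023). The NF_Pvalb call was lost without library 4 (adjusted p = 0.018). The call in Th (log2 fold change 0.46, SE 0.13, adjusted p = 0.0099) was at the threshold and was lost in 8 of 13 alternative fits, among them DESeq2 and the fits without library 1, 2, 4 or 5. The NF2_Ntrk2.Necab2 neurons did not share the low level, at 14.3, 12.99, 25.99, 24.4 and 18.8 CPM, and were not called (log2 fold change 0.18, SE 0.18, adjusted p = 0.44).

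Sptlc1 was highest in NP_Mrgprd, the large group of non-peptidergic nociceptors, at 17.02, 16.1, 17.4, 18.4 and 18.6 CPM in libraries 1 to 5 (log2 fold change 0.69, SE 0.090, adjusted p = 1.2e-05), and this call was kept in every alternative fit. Lower levels were measured in PEP1_Slc7a3.Sstr2, at 12.4, 8.78, 11.9, 7.46 and 11.04 CPM (log2 fold change -0.60, SE 0.15, adjusted p = 0.0044), a call that was lost without library 2, 4 or 5. No library of NP_Mrgprd was as low as any library of PEP1_Slc7a3.Sstr2. In satellite glia Sptlc1 was at 7.57, 16.02, 17.3, 19.8 and 11.6 CPM, which spanned the whole range of the neurons (13.9, 14.4, 14.4, 14.7 and 16.3 CPM). The endothelial sum held only 6 Sptlc1 UMIs, with 0 in libraries 1 and 4, so its mean of 7.68 CPM rests mostly on library 5 at 27.7 CPM.

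The ratio of Sptlc1 to Sptlc2 UMIs (1 UMI added to each) fell into a broad range over the types. It was 1.098 in NF_Pvalb, 1.09 in NF_Calb1 and 1.09 in NP_Mrgprd, 0.58 in Th, 0.473 in PEP1_S100a11.Tagln2, 0.354 in satellite glia and 0.109 in endothelial cells. On the log2 scale the glial value was -1.50 ± 0.59 and that of NP_Mrgprd 0.12 ± 0.18. Between NF and NP neurons the log2 ratio differed by 0.020 ± 0.081, higher in 3 of 5 libraries, with an exact two-sided sign-flip p of 0.69, where 5 libraries allow no p below 0.0625. With the mean of per-cell CPM in place of sums the difference was 0.22 (exact p = 0.1875). Both subunits were lower in NF than in NP neurons by a similar amount, as the class comparison below gives.

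**Figure D2:**
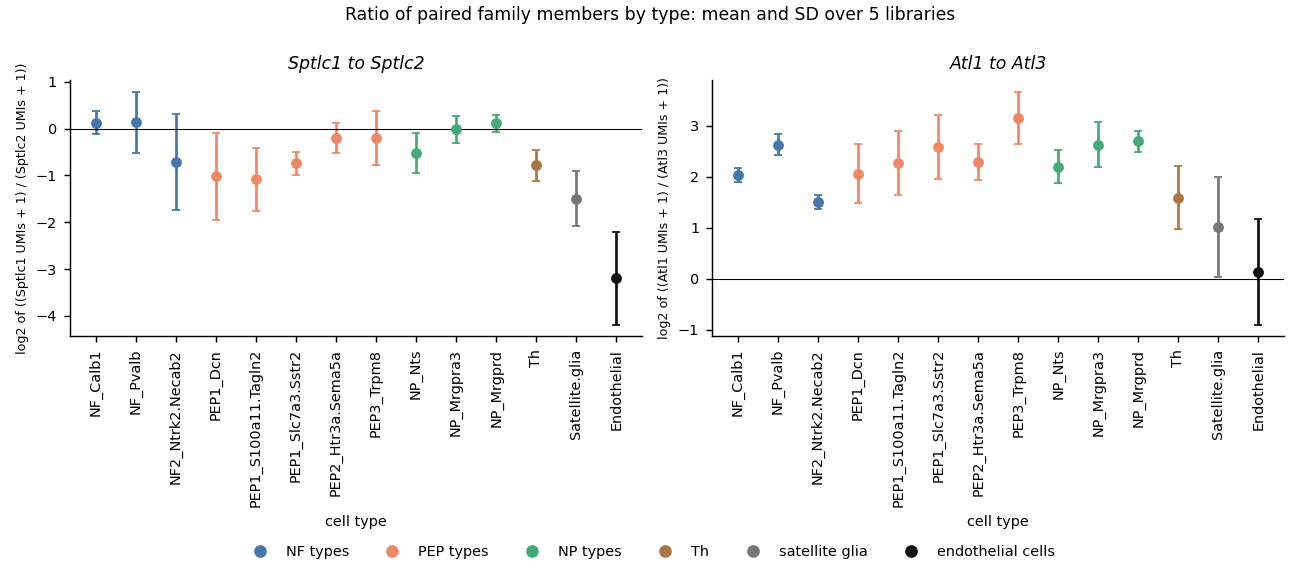
Log2 ratio of Sptlc1 to Sptlc2 UMIs (left) and of Atl1 to Atl3 UMIs (right) in each type, as mean (point) and SD (bar) over 5 libraries, with 1 UMI added to each sum. Satellite glia and endothelial cells have the lowest ratios in both panels, and PEP3_Trpm8 has the highest Atl1 to Atl3 ratio, at 8.88 on the linear scale.

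Both atlastins were higher in neurons than in satellite glia and endothelial cells. Atl1 stood at 187, 167, 220.3, 192 and 189.9 CPM in the neurons of libraries 1 to 5 and at 7.57, 16.02, 26.4, 16.6 and 11.6 CPM in satellite glia, with no overlap. In glia it reached 8.07% of the neuronal level on average (4.05% to 11.96% over libraries), and the neuron markers reached 5.86% (2.83% to 9.07%). The part of RNA from neurons in the glial value was not tested. Against satellite glia the log2 fold change was 3.24 (SE 0.19, adjusted p = 2.8e-11), and against endothelial cells, at 68.6, 6.62, 7.38, 4.96 and 27.7 CPM, it was 4.23 (adjusted p = 7.3e-10, edgeR).

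Among the neurons, the mean of Atl1 ranged 1.87-fold, from 220.3 ± 32.5 CPM in the cold-sensing PEP3_Trpm8 neurons to 118 ± 10.9 CPM in NF2_Ntrk2.Necab2. It was called higher in NP_Mrgprd (220.2, 192, 233, 222 and 212 CPM; log2 fold change 0.63, SE 0.091, adjusted p = 3.3e-05), lower in NF2_Ntrk2.Necab2 (100.4, 120.1, 123.4, 129 and 115 CPM; log2 fold change -0.60, SE 0.11, adjusted p = 0.00022) and lower in Th (112, 113, 188, 104 and 119 CPM; log2 fold change -0.54, SE 0.14, adjusted p = 0.0053). The call in Th was lost without library 1, 2, 4 or 5. With each type counted equally the value in Th was 0.0065 on the log2 scale, with the sign turned, and NF2_Ntrk2.Necab2 was then at -0.09 and no longer called. PEP3_Trpm8, although highest by its mean, was not called (log2 fold change 0.27, SE 0.10, adjusted p = 0.045), and its libraries (264, 195, 239, 219 and 184 CPM) overlapped those of NP_Mrgprd. Library 3 had the highest Atl1 level of the 5 libraries over all cells, at 208.5 CPM against 161.6 CPM in library 2.

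Atl3 stood at 32.3, 40.5, 33.1, 34.99 and 35.5 CPM in the neurons of libraries 1 to 5 and at 10.1, 12.5, 8.32, 3.17 and 2.89 CPM in satellite glia (log2 fold change 2.03, SE 0.25, adjusted p = 7.8e-07 for neurons against glia). The groups did not overlap, and the call was kept in every alternative fit. In endothelial cells Atl3 was at 17.2, 19.9, 11.1, 0 and 27.7 CPM, from 13 UMIs in all. Neurons were called higher than endothelial cells (log2 fold change 1.71, SE 0.36, adjusted p = 0.00031), where the median over all genes was 1.25. Endothelial cells were called lower than all other cells (log2 fold change -1.29, SE 0.37, adjusted p = 0.0059), where that median was -0.83. The latter call was lost without library 1, 3, 4 or 5 and with sums of at least 10 cells. Among the neuron types Atl3 was not called, but with the replicate block it was called higher in PEP2_Htr3a.Sema5a (log2 fold change 0.32) and lower in PEP3_Trpm8 (-0.59). Its mean ran from 43.4 ± 6.07 CPM in PEP2_Htr3a.Sema5a to 24.5 ± 8.397 CPM in PEP3_Trpm8, the type in which Atl1 was highest.

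The Atl1 to Atl3 ratio was 5.41 in neurons and 2.02 in satellite glia. The log2 ratio was higher in neurons in 5 of 5 libraries, by 2.85, 1.70, 1.15, 0.32 and 1.10 in libraries 1 to 5, a mean of 1.42 ± 0.94 with an exact sign-flip p of 0.0625, the smallest that 5 libraries allow. With the mean of per-cell CPM it was 1.14 (exact p = 0.1875), and the glial ratio rests on 84 Atl1 and 35 Atl3 UMIs. Over the types the ratio ran from 8.88 in PEP3_Trpm8 and 6.49 in NP_Mrgprd to 3.01 in Th and 2.82 in NF2_Ntrk2.Necab2. In endothelial cells it was 1.1, from 12 and 13 UMIs.

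Kif1a was higher in every neuron type than in either non-neuronal type, and highest in NF_Calb1 and NF_Pvalb. In NF_Calb1 it stood at 671, 798, 769.9, 529 and 588 CPM in libraries 1 to 5 (log2 fold change 0.60, SE 0.12, adjusted p = 0.00036), and in NF_Pvalb, the proprioceptors, at 920.4, 657, 649, 549 and 550.4 CPM (log2 fold change 0.60, SE 0.13, adjusted p = 0.001). Both calls were kept in every alternative fit. In PEP2_Htr3a.Sema5a Kif1a was at 543, 521, 676, 517 and 649.9 CPM (log2 fold change 0.41, SE 0.10, adjusted p = 0.004), a call lost against the other neurons alone and without library 2, 4 or 5. NF2_Ntrk2.Necab2, the third NF type, was at 471 ± 53.9 CPM and was not called. The lowest neuron types were Th (363 ± 43.1 CPM) and NP_Mrgprd (365 ± 54.9 CPM).

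In satellite glia Kif1a was at 95.8, 118, 159, 97.4 and 142 CPM, with no overlap with the neurons of any library (478, 442, 546, 390.4 and 402 CPM; log2 fold change 1.71, SE 0.14, adjusted p = 6.2e-09 for neurons against glia). The glial level was 27.2% of the neuronal level (20.04% to 35.2%), above the 2.83% to 9.07% of the neuron markers. At least 1 Kif1a UMI was found in 85.9% of 249 glial cells (Clopper-Pearson 95% interval 81% to 90.01%, counting error only) and in 16.1% of 56 endothelial cells (7.62% to 28.3%), and after each cell was thinned to 10000 UMIs the shares were 70.7% and 16.1%. The median depths of these types were 17729 and 16889 UMIs. In endothelial cells Kif1a was at 0, 26.5, 14.8, 44.7 and 9.24 CPM from 22 UMIs, 4.49% of the neuronal level, where the neuron markers were at 6.27%.

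**Figure D3:**
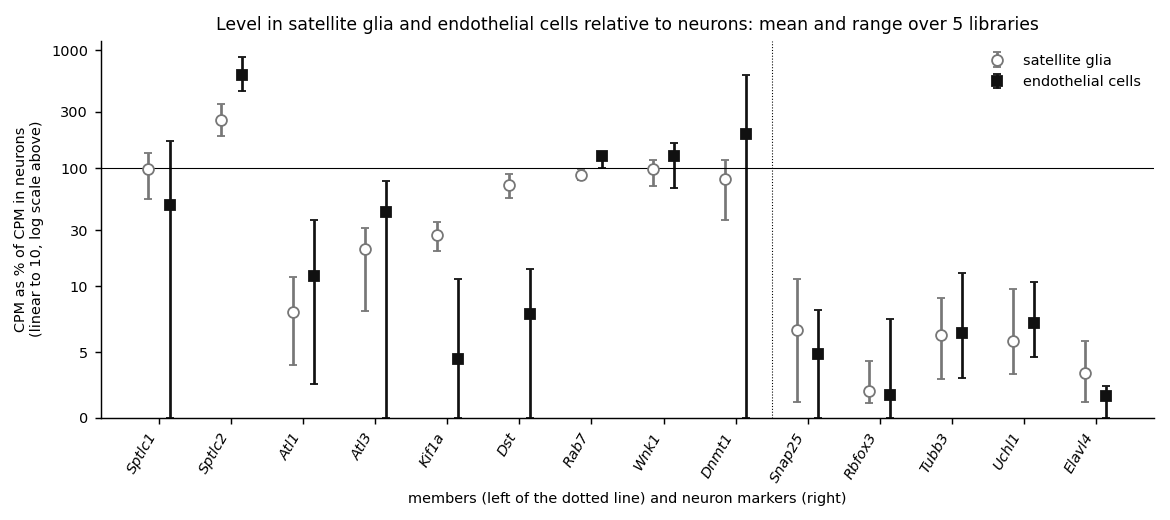
Level of each member (left of the dotted line) and of each neuron marker (right) in satellite glia (open circles) and endothelial cells (squares) as a percent of the level in the neurons of the same library, as mean and range over 5 libraries, on a scale linear to 10% and logarithmic above. Satellite glia hold 27.2% of the neuronal Kif1a level and 71.6% of the Dst level, while the neuron markers lie between 2.04% and 6.71%.

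Dst varied most of the 9 genes among the neurons: its mean was 4 times as high in the highest neuron type as in the lowest. Libraries 1 to 5 stood at 1237, 1394, 1564, 954 and 1119 CPM in NF_Calb1 (log2 fold change 1.36, SE 0.13, adjusted p = 3.6e-07) and at 1607, 1229, 946, 988 and 1071 CPM in NF_Pvalb (log2 fold change 1.18, SE 0.15, adjusted p = 5.3e-06). PEP2_Htr3a.Sema5a came next at 819.9, 816, 1032, 811 and 1045 CPM (log2 fold change 0.83, SE 0.13, adjusted p = 7.6e-05). All 3 calls were kept in every alternative fit. NF2_Ntrk2.Necab2 was also called higher, at 749, 879.9, 713, 650.1 and 634 CPM (log2 fold change 0.50, SE 0.13, adjusted p = 0.0037), but not without library 2, 4 or 5 or without the cells over 10% mitochondrial UMIs. The other neuron types lay between 314 and 500.5 CPM, and the drop from NF2_Ntrk2.Necab2 to PEP1_Dcn, the next type in order, was 0.53 ± 0.07 on the log2 scale and present in 5 of 5 libraries.

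The lowest neuronal levels of Dst were in PEP3_Trpm8, at 369.5, 269.9, 306, 274 and 348 CPM (log2 fold change -0.75, SE 0.12, adjusted p = 0.00015), and NP_Mrgprd, at 314, 356, 395, 274 and 299 CPM (log2 fold change -0.74, SE 0.11, adjusted p = 5.1e-05). Both were called lower in every alternative fit. Satellite glia, at 373, 424, 379.9, 296 and 416 CPM, overlapped both of these types, and neurons against glia did not pass the threshold (log2 fold change 0.35, SE 0.13, adjusted p = 0.022). With the mouse as a replicate block that comparison was called (log2 fold change 0.35, adjusted p = 0.0064). In endothelial cells Dst was at 0, 62.9, 48, 29.8 and 64.7 CPM, from 45 UMIs, and was called lower (log2 fold change -3.47, SE 0.27, adjusted p = 7e-09).

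**Figure D4:**
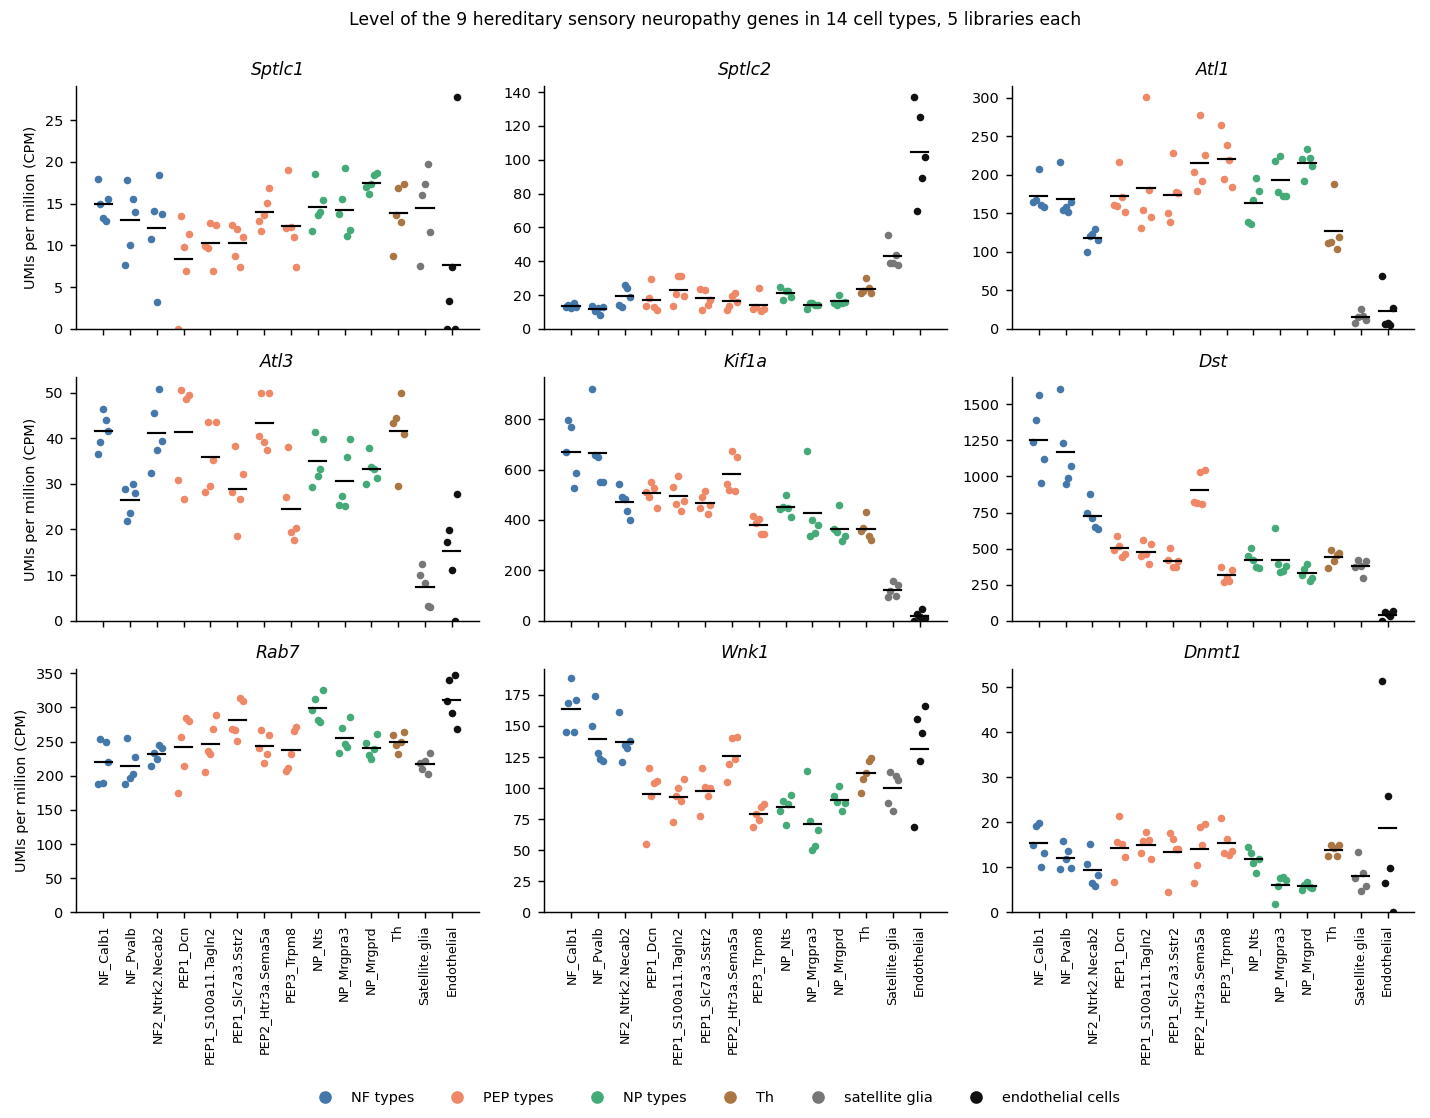
Level of each of the 9 genes (panels; CPM on linear axes from 0) in the 14 types, with 1 point per library and a bar at the mean of 5. Dst is at 1254 CPM in NF_Calb1 and 1168 in NF_Pvalb, Sptlc2 is at 105 CPM in endothelial cells, Atl1, Atl3 and Kif1a drop in the non-neuronal types, and Rab7 has the smallest range.

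Rab7 had the smallest range over types of the 9 genes, at 311 ± 33.4 CPM in the highest type (endothelial cells) and 214 ± 27.3 in the lowest (NF_Pvalb). It was called in 0 of 14 types at an adjusted p under 0.01 by edgeR, was at an unadjusted p under 0.05 in 6, and was called in 1 (NP_Nts) by DESeq2. With the replicate block 3 types were called, with log2 fold changes of -0.27 in NF_Calb1, 0.20 in NP_Mrgprd and 0.28 in NP_Nts. With 1 CPM added, the highest type was 1.45 times the lowest, against a median of 8.51 over 11124 genes with a mean of at least 10 CPM in 1 type. That filter also keeps genes that are high in 1 type only, so the comparison was not matched for level. Libraries 1 to 5 stood at 237, 248, 226, 254 and 269 CPM in neurons, 219, 210.1, 221, 203 and 234 in satellite glia and 309, 341, 292, 348 and 268 in endothelial cells. In endothelial cells the level was above that of the neurons in 4 of 5 libraries, whereas the fitted log2 fold change of neurons against endothelial cells was 0.03 (adjusted p = 0.88). The value was -0.48 with sums of at least 10 cells (adjusted p = 0.0099), -0.43 with each type counted equally (adjusted p = 0.00027) and -0.58 without library 5 (adjusted p = 0.003).

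Wnk1 was higher in all 3 NF types. In libraries 1 to 5 it stood at 145, 168, 189, 145 and 171 CPM in NF_Calb1 (log2 fold change 0.67, SE 0.092, adjusted p = 1.6e-05), 149.6, 174, 128, 123.3 and 122 in NF_Pvalb (log2 fold change 0.42, SE 0.10, adjusted p = 0.0025) and 161, 121, 135, 132 and 138 in NF2_Ntrk2.Necab2 (log2 fold change 0.45, SE 0.094, adjusted p = 0.00091). The call in NF_Calb1 was kept in every alternative fit, that in NF_Pvalb was lost without library 1, 2 or 4, and that in NF2_Ntrk2.Necab2 without library 5 or without the cells over 10% mitochondrial UMIs. The lowest type was NP_Mrgpra3, at 114, 73.1, 50.2, 53.4 and 65.9 CPM, where library 1, with 4 cells, stood above the other libraries. Satellite glia (88.2, 113, 81.8, 110.1 and 107 CPM) overlapped the neurons (101, 106, 115, 93.3 and 101 CPM) and did not pass the threshold (log2 fold change -0.12, SE 0.11, adjusted p = 0.34).

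Dnmt1 was the shallowest of the 9 genes and was lowest in NP_Mrgprd and NP_Mrgpra3. These types were not told apart, with a paired log2 difference of -0.02 ± 0.59 for NP_Mrgpra3 minus NP_Mrgprd. NP_Mrgpra3 stood at 1.96, 5.91, 7.53, 7.97 and 7.30 CPM in libraries 1 to 5 and was not called. NP_Mrgprd stood at 4.98, 6.16, 6.69, 5.66 and 5.42 CPM in libraries 1 to 5 (log2 fold change -0.90, SE 0.12, adjusted p = 1.4e-05), a call kept in every alternative fit. NF_Calb1 stood at 15.04, 19.3, 19.9, 9.98 and 13.1 CPM (log2 fold change 0.61, SE 0.17, adjusted p = 0.0062), a call lost without library 1, 2, 3 or 5. NP_Mrgprd did not overlap NF_Calb1 in any library. Endothelial cells had the highest mean but the widest spread, at 51.5, 6.62, 25.9, 9.93 and 0 CPM from 14 UMIs, and were not called (log2 fold change 0.59, SE 0.47, adjusted p = 0.27). Dnmt1 copies methylation during DNA replication, and 3 markers of dividing cells summed to 3 UMIs in endothelial cells and 41 UMIs in satellite glia. These markers were at 6.70 CPM (551 UMIs) in NP_Mrgprd and at 1.46 CPM (20 UMIs) in NF_Calb1. Only 1 of the 3 had enough counts to be tested between NF and NP neurons, so their sum is no measure of division. Any link between cell division and the Dnmt1 level was not tested. At least 1 Dnmt1 UMI was found in 42.4% of NP_Mrgprd cells and 61.7% of NF_Calb1 cells, and in 5.67% and 17.2% after thinning to 10000 UMIs per cell.

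The types were then joined into classes to ask how the genes differed between neurons and the cells around them. Against satellite glia, 4 of 9 members were called beside 68.1% of all genes: Atl1, Atl3 and Kif1a were higher in neurons and Sptlc2 was lower. Against endothelial cells, 6 of 9 were called beside 63% of all genes: Sptlc1, Atl1, Atl3, Kif1a and Dst were higher and Sptlc2 was lower. The median over all genes was 0.35 in the former and 1.25 in the latter comparison (log2 fold change), so the Sptlc1 value of 1.56 (adjusted p = 0.0098) lay near the median gene. Wnk1 was not called against endothelial cells (log2 fold change -0.06, SE 0.17, adjusted p = 0.77), but was called lower in neurons without library 1 (-0.56, adjusted p = 0.0069), with sums of at least 10 cells (-0.52, 0.0078) and with types counted equally (-0.50, 0.0019). The Sptlc1 call was lost in 11 of 12 alternative fits, including those without each library in turn.

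NF neurons differed from NP neurons in 8 of 9 members, beside 69.8% of all genes. The NP sums came mostly from NP_Mrgprd, which had 900 cells and the highest median depth, beside 400 of NP_Nts and 104 of NP_Mrgpra3. By type, Sptlc1 was at 14.65 CPM in NP_Nts and 14.29 in NP_Mrgpra3, beside 12.07 to 14.92 in the NF types. Dnmt1 was at 11.91 CPM in NP_Nts and 6.13 in NP_Mrgpra3, beside 9.34 to 15.45 in the NF types. Dst had the largest difference, at 1263, 1264, 1344, 869.9 and 994 CPM in NF and 357, 374, 394, 304 and 315 CPM in NP neurons of libraries 1 to 5 (log2 fold change 1.56, SE 0.11, adjusted p = 7.7e-09), and it was the only member with a fitted difference of at least 2-fold in this comparison. Dnmt1 was higher in NF neurons (13.2, 17.8, 16.7, 9.95 and 10.96 against 5.82, 6.91, 7.68, 6.63 and 6.55 CPM; log2 fold change 0.85, SE 0.16, adjusted p = 0.00014), as were Wnk1 (152 ± 13.98 against 87.9 ± 4.74 CPM; log2 fold change 0.64, SE 0.078, adjusted p = 2.3e-06) and Kif1a (636 ± 106 against 385 ± 46.7 CPM; log2 fold change 0.57, SE 0.11, adjusted p = 0.00019). The libraries of these 4 genes did not overlap between the classes, but the share of all genes without overlap was not counted.

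Atl1 was lower in NF than in NP neurons (169, 156, 189, 148 and 150.4 against 211, 185, 219, 211 and 204 CPM; log2 fold change -0.50, SE 0.082, adjusted p = 5e-05). Sptlc1 (14.3 ± 1.64 against 16.7 ± 0.5895 CPM; log2 fold change -0.39, SE 0.11, adjusted p = 0.004), Sptlc2 (14.1 ± 1.06 against 16.8 ± 2.05 CPM; log2 fold change -0.40, SE 0.11, adjusted p = 0.0041) and Rab7 (219 ± 25.3 against 251 ± 13.1 CPM; log2 fold change -0.35, SE 0.093, adjusted p = 0.003) were also called lower. These last 3 calls were lost when library size alone was used for scaling, with adjusted p-values of 0.058, 0.058 and 0.053, and 5 members were then called. Sptlc1 was also lost without library 5, without the cells over 10% mitochondrial UMIs and with types counted equally, Sptlc2 without library 3 or 5 and with types counted equally, and Rab7 without library 1. Atl3 did not pass the threshold (log2 fold change 0.03, SE 0.095, adjusted p = 0.76).

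Against the PEP neurons, 2 of 9 members were called in NF neurons beside 50.1% of all genes: Dst (log2 fold change 0.91, SE 0.12, adjusted p = 8.2e-06) and Wnk1 (log2 fold change 0.51, SE 0.097, adjusted p = 0.00029), both higher. With the mouse as a replicate block 5 were called, the others being Atl1 (log2 fold change -0.28, adjusted p = 0.0064) and Rab7 (-0.25, 0.0094), lower, and Kif1a (0.28, 0.0092), higher. Between PEP and NP neurons 3 of 9 were called beside 54.5% of all genes, with the NP sums again mostly from NP_Mrgprd. Dst (573, 618, 662, 488 and 617 against 357, 374, 394, 304 and 315 CPM; log2 fold change 0.59, SE 0.095, adjusted p = 6.5e-05) and Dnmt1 (8.66, 14.3, 18.6, 14.6 and 14.8 against 5.82, 6.91, 7.68, 6.63 and 6.55 CPM; log2 fold change 0.92, SE 0.14, adjusted p = 4.2e-05) were higher in PEP neurons. Sptlc1 was lower (11.1, 11.4, 12.3, 9.87 and 12.7 against 16.1, 16.3, 16.8, 16.7 and 17.7 CPM; log2 fold change -0.73, SE 0.097, adjusted p = 8.5e-06). None of the 3 genes overlapped between the classes, but here too the share of all genes without overlap was not counted. With the replicate block 5 were called, the others being Kif1a (0.22, 0.0057), higher, and Atl1 (-0.29, 0.0042), lower.

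**Figure D5:**
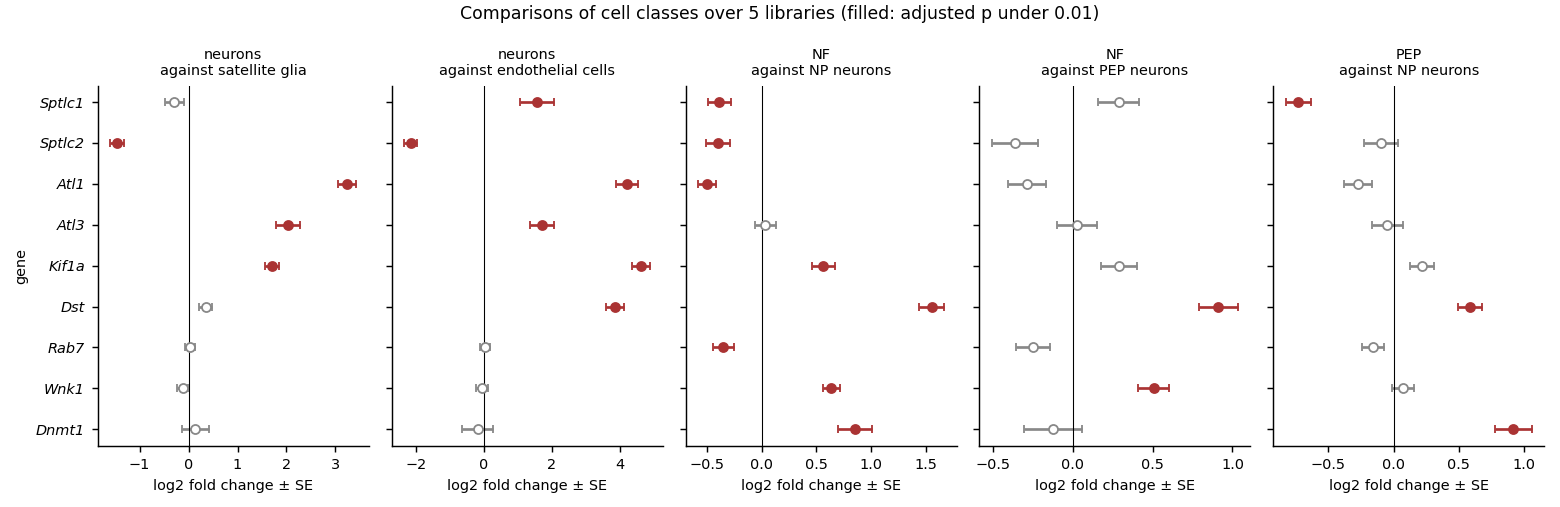
Log2 fold change (point) with its SE (bar) of the 9 genes in 5 comparisons of cell classes, fitted by edgeR over 5 libraries; filled points have an adjusted p under 0.01. Dst is at 1.56 for NF against NP neurons and 0.91 for NF against PEP neurons, while Sptlc2 is at -1.46 for neurons against satellite glia. The horizontal axes differ between panels.

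Because all 3 neuron class comparisons share sums (NF, NP and PEP), their values are set side by side only. For Dst the log2 fold changes were 1.56 for NF against NP, 0.91 for NF against PEP and 0.59 for PEP against NP, a graded order from NF over PEP to NP. For Dnmt1 they were 0.85, -0.12 and 0.92, so that NF and PEP neurons lay close together. For Wnk1 they were 0.64, 0.51 and 0.07, with PEP close to NP neurons. For Atl3 they were 0.03, 0.03 and -0.05.

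Neighbours in the order of the 14 types were mostly not told apart. A gap between neighbours was counted where the mean paired difference in log2(CPM + 1) exceeded its SD over the libraries. Of 13 gaps, this held for 3 in Dst, 2 in Kif1a, 2 in Sptlc2, 1 each in Sptlc1, Atl1, Wnk1 and Dnmt1, and 0 in Atl3 and Rab7. The widest gaps were the drop of Dst from PEP3_Trpm8 to endothelial cells (3.77 ± 2.69, 5 of 5 libraries), that of Kif1a from Th to satellite glia (1.58 ± 0.28, 5 of 5 libraries) and on to endothelial cells (3.39 ± 2.08, 5 of 5), that of Atl1 from NF2_Ntrk2.Necab2 to endothelial cells (2.98 ± 1.65, 5 of 5) and that of Sptlc2 from endothelial cells to satellite glia (1.24 ± 0.33, 5 of 5). From satellite glia to Th, the highest neuron type, Sptlc2 dropped by a further 0.82 ± 0.35 in 5 of 5 libraries. The exact sign-flip p was 0.0625 in each of these, the smallest that 5 libraries allow.

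The other genes of each pathway were taken from lists that hold no member, and their counts are read against all genes. For neurons against satellite glia 40.4% of all genes were higher and 27.7% lower (median log2 fold change 0.35), and for NF against NP neurons 36.3% of all genes were higher and 33.5% lower (median 0.02), 69.8% in all. Satellite glia also held Schwann cell markers (1520 CPM) and fibroblast markers (222.8 CPM), whose part in the glial values below was not tested. The Schwann cell list was not particular to the glia, at 1743 CPM in Th, 691 in NP_Mrgpra3 and 606 in NP_Mrgprd. Sphingolipid synthesis split between neurons and satellite glia, with 4 higher, 6 lower and 5 not called of 15 tested (median log2 fold change -0.37). Ugcg, which makes glucosylceramide, was higher in neurons (47.4 ± 5.75 against 4.34 ± 4.5 CPM, log2 fold change 3.01, adjusted p = 9e-08), and Ugt8a, which makes the galactosylceramide of myelin, was higher in glia (0.137 ± 0.0501 against 5.43 ± 1.899 CPM, log2 fold change -5.60, adjusted p = 1.7e-09). The small activating subunit Sptssa of serine palmitoyltransferase was higher in glia, like Sptlc2 (66.1 ± 11.8 against 245 ± 43.1 CPM, log2 fold change -2.03, adjusted p = 7.5e-10). In NF against NP neurons all 15 genes tested were called beside 69.8% of all genes, 5 higher and 10 lower (median -0.69). The other small subunit, Sptssb, was higher in NF neurons, with 144 UMIs in NF and 2 UMIs in NP neurons (adjusted p = 5.4e-10, with too few NP UMIs for a fold), and the ceramide synthase Cers2 was lower (5.64 ± 0.512 against 62.1 ± 3.56 CPM, log2 fold change -3.63, adjusted p = 2.6e-13). Sptssa was chosen for mention after its values were seen.

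Genes that shape ER tubules gave 10 higher, 0 lower and 2 not called of 12 tested (median log2 fold change 2.15) for neurons against satellite glia, where 40.4% of all genes were higher. The reticulon Rtn2 had the largest difference (130.5 ± 11.6 against 3.92 ± 2.81 CPM, log2 fold change 5.13, adjusted p = 1.3e-12). The third atlastin, Atl2, was also higher in neurons (18.03 ± 0.999 against 7.05 ± 3.33 CPM, log2 fold change 1.19, adjusted p = 7.9e-05), and was likewise chosen after its values were seen. In NF against NP neurons there were 9 higher, 1 lower and 2 not called of 12 tested (median log2 fold change 0.51), with Rtn1 higher (1659 ± 191 against 682 ± 63.1 CPM, log2 fold change 1.12, adjusted p = 7e-08) and Rtn2 lower (126 ± 10.4 against 148 ± 14.2 CPM, log2 fold change -0.40, adjusted p = 0.00069). The direction of Rtn1 was thus opposite to that of Atl1.

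Motor genes of axonal transport gave 14 higher, 1 lower and 2 not called of 17 tested (median log2 fold change 1.98) for neurons against satellite glia. Madd, an adaptor of Kif1a cargo, was higher in neurons (132 ± 11.6 against 3.33 ± 2.95 CPM, log2 fold change 5.15, adjusted p = 3e-12), and Kif1c was higher in glia (1.099 ± 0.274 against 20.5 ± 9.91 CPM, log2 fold change -4.26, adjusted p = 4.3e-10). In NF against NP neurons there were 6 higher, 3 lower and 7 not called of 16 tested (median log2 fold change 0.23). The kinesin heavy chain Kif5c was higher in NF neurons (780.2 ± 126 against 227 ± 13.3 CPM, log2 fold change 1.62, adjusted p = 1.3e-09) while Kif5b was lower (1020 ± 126 against 1974 ± 208 CPM, log2 fold change -1.11, adjusted p = 2.6e-07).

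Among cytoskeletal linkers there were 3 higher, 2 lower and 2 not called of 7 tested (median log2 fold change 0.33) against satellite glia, where Mapre3 was higher in neurons (185 ± 8.91 against 53.2 ± 11.1 CPM, log2 fold change 1.60, adjusted p = 1.9e-09) and the integrin Itgb4, a partner of epithelial dystonin, was higher in glia (0.252 ± 0.101 against 16.02 ± 15.4 CPM, log2 fold change -5.91, adjusted p = 9.7e-09). Between NF and NP neurons there were 3 higher, 1 lower and 2 not called of 6 tested (median log2 fold change 0.47). Plec, a plakin like Dst, was higher in NF neurons (297 ± 62.6 against 106 ± 9.69 CPM, log2 fold change 1.33, adjusted p = 9.3e-08), and Mapre1 was lower (173 ± 10.3 against 205 ± 10.2 CPM, log2 fold change -0.40, adjusted p = 0.00027). Thus both plakins had the same direction in this comparison.

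For late endosomes and lysosomes there were 7 higher, 4 lower and 9 not called of 20 tested (median log2 fold change 0.26) against satellite glia. Mon1a, part of the factor that activates Rab7, was higher in neurons (21.7 ± 1.52 against 4.15 ± 2.42 CPM, log2 fold change 2.29, adjusted p = 2e-06), and Fyco1, a Rab7 effector, was higher in glia (1.24 ± 0.0915 against 4.77 ± 2.27 CPM, log2 fold change -2.13, adjusted p = 2.5e-05). The NF against NP comparison gave 9 higher, 3 lower and 7 not called of 19 tested (median log2 fold change 0.25). Rilp, the effector that couples Rab7 to dynein, was higher in NF neurons, with NP neurons under 1 CPM (8.503 ± 2.699 against 0.116 ± 0.0696 CPM, log2 fold change 5.73, adjusted p = 3.3e-10), and Vps29 of the retromer was lower in NF neurons (185 ± 30.3 against 328 ± 28.9 CPM, log2 fold change -0.98, adjusted p = 1.8e-06).

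In the WNK pathway there were 4 higher, 4 lower and 3 not called of 11 tested (median log2 fold change 0.35) against satellite glia. The potassium chloride cotransporter Slc12a4 (KCC1) was higher in glia (1.38 ± 0.458 against 42.3 ± 9.23 CPM, log2 fold change -5.06, adjusted p = 1.8e-12). In NF against NP neurons there were 6 higher, 3 lower and 1 not called of 10 tested (median log2 fold change 1.37). Wnk3 was higher in NF neurons (6.16 ± 1.17 against 0.0923 ± 0.1095 CPM, log2 fold change 6.12, adjusted p = 1.3e-09), as Wnk1 was. Slc12a4 was lower (0.148 ± 0.149 against 2.39 ± 0.754 CPM, log2 fold change -3.89, adjusted p = 1.7e-06). The lower arm of each was under 1 CPM with an SD above its mean, so these give a direction and no firm fold.

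Genes of DNA methylation gave 0 higher, 4 lower and 5 not called of 9 tested (median log2 fold change -0.61) against satellite glia. Pcna, the replication clamp that binds Dnmt1, was higher in glia (33.1 ± 3.43 against 77.3 ± 9.21 CPM, log2 fold change -1.40, adjusted p = 2.1e-08) and lower in NF than in NP neurons (19.8 ± 2.502 against 38.3 ± 4.99 CPM, log2 fold change -1.08, adjusted p = 7e-07). The methyl-CpG binding gene Mbd2 was higher in NF neurons (37.3 ± 4.99 against 11.7 ± 0.831 CPM, log2 fold change 1.50, adjusted p = 1.1e-08), and the list as a whole gave 2 higher, 2 lower and 5 not called of 9 tested (median log2 fold change 0.04). Other genes of hereditary sensory neuropathy gave 8 higher, 0 lower and 0 not called of 8 tested (median log2 fold change 4.26) against satellite glia, with the nociceptor factor Prdm12 at 70.2 ± 11.7 against 1.05 ± 1.17 CPM, log2 fold change 5.35, adjusted p = 6.2e-11. They gave, in NF against NP neurons, 2 higher, 5 lower and 1 not called of 8 tested (median log2 fold change -1.57), where the sodium channel Scn11a was lower (30.99 ± 13.2 against 259 ± 49.9 CPM, log2 fold change -3.25, adjusted p = 2e-08) and Tecpr2 higher (32.9 ± 5.14 against 14.02 ± 1.54 CPM, log2 fold change 1.08, adjusted p = 5.3e-07). All p-values of these lists come from edgeR with Benjamini-Hochberg adjustment over all genes tested.

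Against endothelial cells the same lists gave, for neurons, 6 higher and 2 lower of 14 sphingolipid genes, 10 and 0 of 12 ER genes, 15 and 1 of 17 motor genes, 3 and 1 of 6 linkers, 9 and 1 of 19 endolysosomal genes, 4 and 2 of 10 WNK pathway genes, 0 and 2 of 9 methylation genes and 7 and 0 of 8 other neuropathy genes. For NF against PEP neurons the counts were 3 higher and 7 lower of 15, 7 and 0 of 12, 6 and 0 of 16, 1 and 1 of 6, 6 and 2 of 20, 5 and 2 of 9, 1 and 2 of 9 and 3 and 5 of 8 in the same order. For PEP against NP neurons they were 3 and 8 of 14, 4 and 3 of 12, 3 and 3 of 17, 3 and 1 of 6, 4 and 5 of 20, 5 and 4 of 10, 4 and 1 of 10 and 2 and 3 of 8. Over all genes, 46.4% of all genes were higher and 16.7% lower for neurons against endothelial cells (median log2 fold change 1.25), 24.3% of all genes were higher and 25.8% lower for NF against PEP and 28.9% of all genes were higher and 25.6% lower for PEP against NP neurons.

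As a description, the mean log2(CPM + 1) of each member over the types was correlated with that of every gene with at least 10 CPM in 1 type. Over 12 neuron types, the members most alike were Kif1a and Dst (Pearson r = 0.91) and Dst and Wnk1 (0.89). Over all 14 types, Sptlc2 ran opposite to Kif1a (-0.95), Atl1 (-0.86) and Dst (-0.83), and over the 12 neuron types the values were -0.46, -0.46 and -0.41. Over all 14 types Atl1 and Atl3 were alike (0.85). In single libraries the r of Atl1 and Atl3 lay between 0.73 and 0.92 over 14 types but between -0.65 and -0.13 over the 12 neuron types. The points of these correlations share libraries, and sums of few cells weigh as much as large ones.

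Over the 12 neuron types, the genes most like Sptlc1 were Pias4 (0.927), Tysnd1 (0.925), Stx8 (0.884), with r in parentheses, and those most like Sptlc2 were Ncor1 (0.924), Fam96a (0.902), Myadm (0.864). For Atl1 they were 2310057M21Rik (0.908), Bgn (0.899), Rpn2 (0.888), of which Bgn stayed under 1 CPM in every neuron type, and for Atl3 Atm (0.894), Yipf6 (0.888), Arpp19 (0.881). For Kif1a they were Dync1li2 (0.956), Ccdc6 (0.956), Cenpb (0.956), the first a dynein subunit, and for Dst Ube3c (0.985), Wars (0.985), Lnp (0.985), the last an ER tubule gene. For Rab7 they were Vps37c (0.925), Bcat2 (0.909), E130309D02Rik (0.904), for Wnk1 Iars2 (0.976), Azin1 (0.968), Map3k10 (0.968) and for Dnmt1 Thrap3 (0.955), Ddx17 (0.934), Wbp11 (0.922). Over all 14 types the nearest genes were Pias4 (0.913), Stx8 (0.911), Ccz1 (0.875) for Sptlc1, Elf2 (0.956), Ythdc1 (0.954), Tceb3 (0.953) for Sptlc2, Svop (0.987), Acot7 (0.977), Thnsl1 (0.977) for Atl1, Unkl (0.961), Abhd17a (0.955), Gopc (0.949) for Atl3, Fbxw5 (0.995), Pigk (0.989), 0610010F05Rik (0.989) for Kif1a, Nudt3 (0.975), 2310009B15Rik (0.969), Atxn2 (0.968) for Dst, E130309D02Rik (0.921), Gm12504 (0.884), Rps15 (0.877) for Rab7, Homer1 (0.937), Cul3 (0.935), Itga4 (0.930) for Wnk1 and Pds5b (0.897), Casc3 (0.877), Itpr1 (0.874) for Dnmt1.

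The range of each member among the neurons was set beside that of other genes. With 1 CPM added, the highest neuron type was 1.39 times the lowest for Rab7, 1.74 for Atl3, 1.85 for Kif1a, 1.86 for Atl1, 1.97 for Sptlc2, 1.99 for Sptlc1, 2.28 for Wnk1, 2.42 for Dnmt1 and 3.99 for Dst. The median over 11124 genes was 3.08, and of the 9 members only Dst was above it. Folds of genes with few UMIs also carry more counting error.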

How the data were processed

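Single cells of lumbar DRGs from 5 mice were profiled by droplet 3′ RNA sequencing. According to the study's methods, the authors ran Cell Ranger 2.0.0 (mm10 genome, genes as in the UCSC model), and clustered cells in Seurat 3.0.1 (15 principal components, resolution 0.6). The deposited matrix holds raw UMI counts per gene and cell, and a deposited table gives each cell's type. Of 17271 rows, 4 named no mouse gene (143 UMIs, 6.37e-05% of the total) and were left out, and 0 columns of cells were left unused. The stated limit of 10% mitochondrial UMIs was exceeded by 188 cells in the matrix, which were kept in the main fits. Doublets were not called here.

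UMI counts were summed per type, or class, and library. Libraries were numbered 1 to 5 by the identifier in the cell names, which no sample label repeats, and each was taken as 1 mouse. If that is wrong, the spread between libraries may be technical. Sums were tested with edgeR 4.0.16 (R 4.3.3; filterByExpr, TMM, quasi-likelihood test). P-values were adjusted over all genes tested by Benjamini-Hochberg, with a threshold of 0.01. Every mouse was in both arms, but the main fits took the sums as unpaired. Deviations of same-numbered sums from the group means correlated between -0.021 and 0.40. A fit with the library as a replicate block was an alternative. Differences between neighbouring types and between ratios were taken within each library. The other alternatives were DESeq2 1.42.0, library size alone, all genes with a UMI, only cells within the mitochondrial limit, a minimum of 10 cells in a sum, types counted equally, other neurons only, other thresholds and leaving out each library. Fold ranges and orders used log2(CPM + 1), and ratios used 1 added UMI. On simulated counts, 52% of 2-fold and 90% of 4-fold changes were recovered for neurons against satellite glia (12109 genes, 0 false calls). The shares were 75% and 94% for NF against NP neurons (11862 genes, 1 false call) and 17% and 66% for neurons against endothelial cells (11683 genes, 0). For PEP3_Trpm8 against other cells they were 49% and 92% (11848 genes, 4). The simulation changed only 100 genes per fold, whereas 33.7% to 69.8% of all genes were called in the real comparisons, so these rates may not hold there. Analyses other than the fits used Python 3.11.15.

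The members and gene lists were chosen with earlier results of these data known. All 9 members are named. From each pathway list, the text names the called gene with the largest fold change in each direction that went the same way in every library, for neurons against satellite glia and for NF against NP neurons, and the 3 genes most correlated with each member. In the deposited row names Lnpk is listed as Lnp, Retreg1 as Fam134b and Kifbp as Kif1bp. Not every gene the rule would name is reported here. Intervals cover counting error only.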

Additional observations from a re-analysis of the deposited data

Results flagged for a closer look

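In 11 of 171 groups of 5 libraries, 1 library stood apart from the other 4 by Dixon's test, where chance gives about 1 in 20. Library 3 was highest for Atl1 in PEP1_S100a11.Tagln2 (300.8 CPM, others 131.1 to 180.0), NF_Calb1 (208.1, others 158.4 to 167.9), Th (188.2, others 103.9 to 119.1) and all PEP neurons (255.3, others 161.8 to 187.4). In NF_Pvalb it was library 1 that was highest for Atl1 (216.7 CPM, others 151.3 to 164.2).

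In NP_Mrgpra3, library 1, with 4 cells, was highest for Dst (640.2 CPM, others 337.9 to 392.3) and for Kif1a (673.5 CPM, others 336.2 to 399.0). Dnmt1 was lowest in library 1 of PEP1_Slc7a3.Sstr2 (4.52 CPM, others 14.1 to 17.6). Sptlc2 was highest in library 3 of PEP3_Trpm8 (24.5 CPM, others 10.5 to 13.2). Sptlc1 was lowest in library 3 of the NF neurons (11.5 CPM, others 14.6 to 15.5) and highest in library 5 of the endothelial cells (27.7 CPM, others 0 to 7.39). Rows of the matrix that name no mouse gene held 143 UMIs, a signal outside the genes compared here.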

How the results depend on the processing

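The 31 calls by type became 56 with each type counted equally, 54 at an adjusted p under 0.05 and 11 with a 2-fold limit added, and ranged from 23 to 30 as each library was left out, with 8 of the 31 lost without library 4 and 8 without library 5. None of the 31 calls was called in the other direction. NF against NP neurons gave 5 called members in place of 8 with library size alone and 1 with the 2-fold limit. NF against PEP neurons gave 5 in place of 2 with the replicate block, with types counted equally and at 0.05, and 0 with the 2-fold limit. PEP against NP neurons gave 5 in place of 3 with the replicate block and at 0.05, and 0 with the 2-fold limit. The replicate block lost none of the calls by type and added 13, and among the class comparisons with satellite glia it added Dst. Rab7 for neurons against endothelial cells turned from 0.03 to -0.48 with sums of at least 10 cells, -0.43 with types counted equally and ranged from -0.58 (without library 5) to 0.080 (without library 2) as each library was left out. Atl1 in Th turned to 0.0065 with types counted equally. The Sptlc1 to Sptlc2 ratio, NF minus NP, turned to -0.0015 without cells over 10% mitochondrial UMIs and ranged from -0.0095 to 0.045 as each library was left out, with 0.22 for the mean of per-cell CPM. The cause of these changes was not tested. Scaling by library size alone moved the median log2 fold change of all genes by -0.36 for neurons against endothelial cells, 0.17 for neurons against satellite glia, 0.16 for NF against NP and 0.18 for PEP against NP neurons. For types against other cells the largest shifts were -0.26 in NP_Mrgprd, -0.18 in NP_Mrgpra3 and -0.17 in satellite glia. Over the alternative fits the NP_Mrgprd values ran from 0.43 to 0.73 for Sptlc1 and 0.37 to 1.00 for Atl1. They ran from -0.99 to -0.36 for Dst and -1.16 to -0.88 for Dnmt1. The mean of per-cell CPM moved 8 of 126 levels by over 1 SD and changed the highest type of 0 members. Depth limits endothelial cells most, with 56 cells.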
